A study of Homo sapiens with 6 samples.

Results

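The intergenic regions of full-length ZNF469 whose centre lacks an AP-1 site were examined. These are the records of the full-length CUT&RUN peak list that met 3 conditions. The summit, the base of highest coverage, lay more than 1 kb from every annotated transcription start. It lay in no gene body of any type. The 101 bp around it held neither TGACTCA nor TGAGTCA, the palindromic 7-base AP-1 consensus, on either strand. The rule found 3536 regions, 18.5% of the 19108 full-length regions. The other intergenic regions, 1088 or 5.69% of the list, carried the consensus in the same window. CUT&RUN releases the DNA around an antibody's target with a tethered nuclease. It was performed with a polyclonal antibody against ZNF469 in formaldehyde-fixed LX-2 cells, an immortalized line of human hepatic stellate cells, which lay down collagen in liver fibrosis. They carried a piggyBac transgene, inducible by doxycycline, for full-length ZNF469 with an N-terminal HA tag (clone3.4) or for dZF, a form without most of its zinc fingers (clone3.1). All 6 libraries came from cells kept in medium with 2-Phospho-L-ascorbic acid, at a labelled 50 mM, and given doxycycline at 1 microgram/mL for 24 h, with 3 libraries per construct. Removal of the endogenous gene is not described in the sources used here, the labels do not say what a clone is, and since each construct had its own line, construct and line cannot be told apart.

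The peak values used here come as 1 list per construct that stands for its 3 libraries. No value per library was analysed, no replicate error could be computed and no test was run. Intervals beside shares are 95% Wilson intervals and limits beside fragment counts are 95% Poisson limits. Both cover counting error only. Peak lists do not show whether the stellate cell markers that define LX-2 were expressed.

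Sequence far from genes can act as an enhancer, a stretch where transcription factors gather and from which they influence a promoter at a distance. AP-1, made of FOS and JUN family proteins, marks many enhancers of fibroblasts and other mesenchymal cells. TEAD proteins, the DNA-binding partners of YAP and TAZ in the Hippo pathway, and RUNX proteins often sit at the same enhancers. Gene deserts are long stretches without annotated genes, and some hold distant enhancers of developmental genes.

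The windows below are shown because they carry the values described later, in hg38 coordinates and on the forward strand. The first belongs to the region of highest fold enrichment.
chr21:10325790-10325890: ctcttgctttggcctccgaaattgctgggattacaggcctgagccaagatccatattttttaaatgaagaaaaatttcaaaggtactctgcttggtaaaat

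The next windows are those of highest fold that hold a 7-base word differing from the AP-1 consensus at 1 base, shown in capitals. They come in pairs for TGACTAA, for TGAATCA and for TTACTCA, each word on either strand.
chr5:42950702-42950802: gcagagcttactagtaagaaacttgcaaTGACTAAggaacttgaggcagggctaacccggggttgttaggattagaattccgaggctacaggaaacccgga
chr10:91672355-91672455: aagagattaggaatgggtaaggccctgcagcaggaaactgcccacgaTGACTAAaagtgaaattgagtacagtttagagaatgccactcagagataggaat
chr11:47974486-47974586: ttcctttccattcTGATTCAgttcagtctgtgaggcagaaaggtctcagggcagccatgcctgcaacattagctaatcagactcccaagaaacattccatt
chr18:23115785-23115885: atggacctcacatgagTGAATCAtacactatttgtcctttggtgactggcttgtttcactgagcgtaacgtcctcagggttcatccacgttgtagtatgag
chr5:131242950-131243050: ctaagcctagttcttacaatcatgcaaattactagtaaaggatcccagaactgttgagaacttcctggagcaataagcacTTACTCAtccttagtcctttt
chr5:83633007-83633107: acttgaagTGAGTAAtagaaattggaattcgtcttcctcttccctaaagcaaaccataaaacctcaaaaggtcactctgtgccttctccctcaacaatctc

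The last windows are those of highest fold that hold the TEAD core GGAATG (the first pair) or a RUNX core, TGTGGT or TGCGGT (the second pair), in capitals and on either strand.
chr2:66840150-66840250: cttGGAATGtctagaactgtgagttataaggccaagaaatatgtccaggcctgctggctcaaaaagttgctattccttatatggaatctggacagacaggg
chr11:47974486-47974586: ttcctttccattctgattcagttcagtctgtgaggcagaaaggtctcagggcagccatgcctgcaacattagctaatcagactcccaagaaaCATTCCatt
chr5:73321941-73322041: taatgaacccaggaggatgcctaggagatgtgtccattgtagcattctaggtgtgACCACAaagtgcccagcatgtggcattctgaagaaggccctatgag
chr1:9211474-9211574: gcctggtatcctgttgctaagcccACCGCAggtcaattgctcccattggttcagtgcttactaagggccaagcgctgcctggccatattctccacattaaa

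The summit windows were compared with windows of the same length 2 kb to either side of each summit (6945 flank windows) and with a grid of 548778 windows spread over intergenic sequence, both kept free of the AP-1 consensus like the regions. A motif match says only that these letters stand in the window. The TEAD core was found in 531 regions, 15% (interval 13.9 to 16.2), against 5.40% (4.89 to 5.96) of flanks and 5.98% of grid windows. The intervals of regions and flanks did not overlap, and the share was 2.78 times that of the flanks. The RUNX core was found in 409 regions, 11.6% (10.6 to 12.7), against 8.34% (7.71 to 9.01) of flanks and 7.62% of grid windows. The CTCF motif, bound by the factor that organises chromatin loops, was found in 3 regions, 0.0848% (0.0289 to 0.249), and its interval overlapped that of the flanks at 0.0576% (0.0224 to 0.148).

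Other motifs with more matches than flanks were less common. The E-box CAGCTG, read by basic helix-loop-helix factors, was in 6.22% of regions and 3.93% of flanks. The NF-I word TTGGCA was in 6.87% of regions and 4.91% of flanks. The NF-kB site, a motif of inflammatory signalling, was in 0.65% of regions and 0.245% of flanks. Fewer matches than in flanks were found for the homeobox word TAATTA, at 2.40% (1.95 to 2.96) against 4.02% (3.58 to 4.51), and for MEF2, a muscle and stromal factor, at 1.39% (1.05 to 1.83) against 2.42% (2.08 to 2.81). Several broad motifs hardly differed. The C/EBP site was in 25.2% of regions and 24.6% of flanks, the NF-Y word CCAAT in 16.0% and 15.1%, and the GATA word AGATAA in 8.06% and 7.53%. GC content of the windows averaged 44% in the regions, 42.1% in flanks and 39.9% in the grid, and its part in the shares of motifs was not tested.

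**Figure D1:**
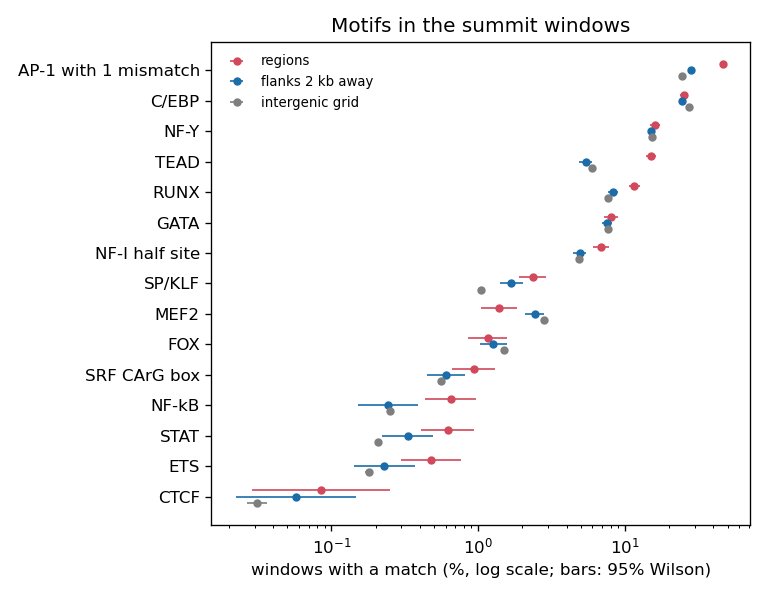
Share of 101 bp windows with a match to each motif, in percent on a log scale, for the 3536 regions, their flanks 2 kb away and the intergenic grid. Points are shares and bars 95% Wilson intervals. The TEAD point of the regions (15%) lies to the right of flanks (5.40%) and grid (5.98%), whereas C/EBP, NF-Y and GATA points lie close together.

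Regions without the consensus at the summit often held a near miss of it. A word within 1 mismatch of the AP-1 consensus was in 46.8% of regions (45.1 to 48.4), against 28% of flanks (26.9 to 29.0) and 24.3% of grid windows. The excess was uneven among the 19 possible words. Positions are counted from 1 at the first base of TGACTCA. The change C6A, which gives TGACTAA, was in 8.74% of regions and 1.14% of flanks, 7.68 times as many. The change C4A, which gives TGAATCA, was in 10.7% of regions and 1.64% of flanks, 6.55 times as many. The change G2T, which gives TTACTCA, was in 6.56% of regions and 1.37% of flanks, 4.80 times as many. No other word reached 5% of regions. The words with a change at A3 had smaller shares than in flanks. They were at 2.57% against 3.31% for A3T, 3.42% against 5.21% for A3G and 2.32% against 5.03% for A3C. In grid windows these words were at 2.62%, 3.85% and 3.41%, closer to the regions than the flanks were.

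The 3 frequent words, singled out after their shares were seen, are called near-matches here. They were found in 870 regions, 24.6% (23.2 to 26.1), against 4.10% of flanks and of grid windows alike. In the gene-body regions without the consensus, the most similar group of the list (n = 7120), the share was 24.2%. That group also resembled the intergenic regions in the TEAD core, at 14.1% (13.3 to 14.9), and in the RUNX core, at 13.0% (12.2 to 13.8). In regions within 1 kb of a start (n = 5232) the TEAD core was in 6.8% of windows and the SP/KLF word GGGCGG, typical of promoters, in 30.5%, against 2.35% in the intergenic regions without AP-1.

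A search of the same windows and flanks without a motif list gave related words. It is not separate support, since words of 8 bases can contain a near-match. Among the 612 words of 8 bases present in at least 1% of the windows, counted together with their reverse complements, the 10 with the highest ratio to the flanks each shared 6 or more letters in a row with a near-match. GACTAAGC led with 1.13% of regions against 0.072% of flanks, a ratio of 15.7. GTGACTAA followed at 2.94% and a ratio of 13.6, CTTAGTCA at 2.69% and 12.4, and ATGACTAA at 3.82% and 11.5. CATTAGTC and also GTTAGTCA had ratios of 11. The words ATGATTCA, at 4.95% of regions, and ATGAATCA, at 4.95%, were the most frequent of the 10, with ratios of 10.1 and 9.82. GTGATTCA was in 2.88% of regions and GATGAGTA in 1.56%, with a ratio of 9.0 for the latter. The 40 words of highest ratio included 3 with the TEAD core.

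Matches gathered at the summit. Within 50 bp of it, near-matches averaged 5.60 per 100 regions in each 20 bp bin, against 0.947 in bins 400 to 500 bp away. TEAD cores averaged 3.38 against 1.23 and RUNX cores 2.55 against 1.55. C/EBP matches were as frequent inside as outside, at 6.44 and 6.51. The AP-1 consensus itself stood just beyond the barred window. It was somewhere in the record of 1404 regions, 39.7% (38.1 to 41.3), at a median distance of 93 bp from the summit (quartiles 67 and 143 bp). Outside the summit window, the records held 1.18 consensus matches per kb, against 0.146 per kb of the intergenic grid. Of the 3536 regions, 740 (20.9%) held the whole word inside a window of 100 bases on each side of the summit.

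**Figure D2:**
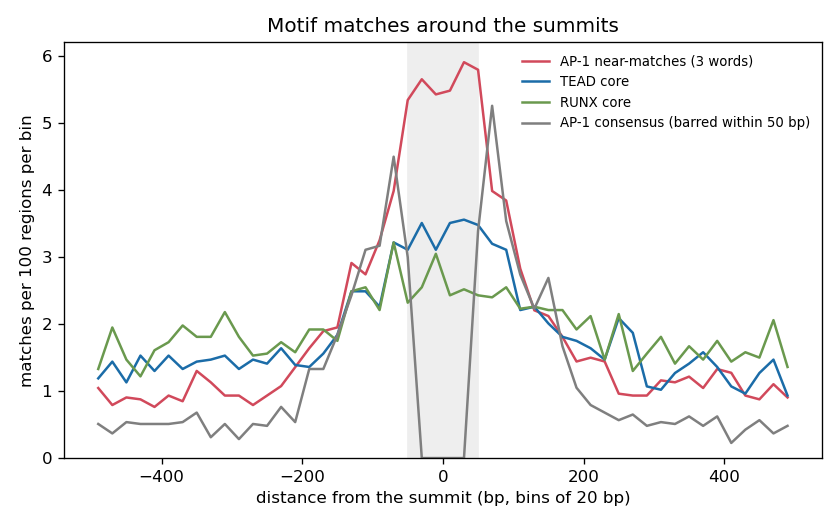
Motif matches per 100 regions in 20 bp bins against distance from the summit in bp, for the AP-1 near-matches, the TEAD core, the RUNX core and the AP-1 consensus; the grey band is the window in which the rule bars the consensus. Near-matches average 5.60 per bin within 50 bp and 0.947 beyond 400 bp, and the consensus rises on both sides of the band.

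By sequence, the regions fell into 3 groups, the last with a slightly lower median signal. A near-match at the summit was held by 870. A further 1125 regions, 31.8% (30.3 to 33.4), had no near-match but the consensus elsewhere in the record. The remaining 1541, 43.6% (42.0 to 45.2), had neither, and 265 of them held the TEAD core. Median fold enrichment was 7.51, 7.47 and 7.12 in these 3 groups, and median pileup 20, 20 and 19 fragments. Median record widths were 451, 489 and 430 bp, and a wider record has more sequence in which the consensus can stand, so the split itself bears on these widths. In 279 regions (7.89%) the window matched none of the listed motifs, mismatched AP-1 words included, and the record held no AP-1 consensus.

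Fold enrichment, column 7 of the list, is the number of fragments at the summit plus 1 over the local background plus 1. It had a median of 7.34 (quartiles 6.32 and 8.60) and ran from 2.09 to 49.6. The −log10 p-value of column 8 had a median of 14.8 (quartiles 11.8 and 19.97) and ran from 2.16 to 226. The pileup, the number of fragments at the summit recovered from both columns, had a median of 20 (quartiles 16 and 27) and ran from 4 to 225. A single count of 20 has Poisson limits of 12.2 to 30.9. Folds above 10 were reached by 372 regions (10.5%) and 216 (6.11%) stayed under 5. The other groups of the list had similar values. Median fold was 7.53 in intergenic regions with AP-1, 7.25 in gene bodies without it and 7.42 within 1 kb of a start, and median pileups were 20, 20 and 21 fragments. At the 1 kb limit of the rule, the nearest region inside it had its summit 1001 bp from a start, with a fold of 5.41. The nearest intergenic record left out had its summit at 993 bp, with a fold of 8.73.

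The pileup moved with the background around the region, which the formula for fold largely fixes. At a given fold, a higher background means a higher pileup, and the quartiles of fold were 6.32 and 8.60. In the 25% of regions with the lowest background, the median pileup was 14 fragments and the median fold 7.38. In the 25% with the highest, they were 31 fragments and 6.83. Chromosome 5 held 3.39% of the first group and 19.5% of the second. It held 44 of the 100 regions of highest background and 21 of the 50 of highest pileup. The density of regions also varied by chromosome around a mean of 3.14 per Mb of eligible intergenic sequence. Chromosome 17 had 5.32 per Mb and chromosome 5 had 4.65, with median backgrounds of 2.31 and 2.54 fragments. Chromosome 16, the lowest autosome, had 1.17 per Mb with a median background of 1.42 fragments. Chromosome 19, with the lowest median background of 1.29 fragments, had 2.26 per Mb. The part of the background in these densities was not tested.

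The regions of highest fold had both repeated and single-copy centres. Single-copy means here only that the exact central 31 bases have no other copy in hg38. Diverged copies of repeats were not searched for, so such a centre can still lie in a repeat. The first, on chromosome 21 (10325714 to 10325938), had a single-copy centre and reached a fold of 49.6 with 156 fragments at its summit (limits 132 to 182). The next, on chromosome 8 near ZNF703, a zinc finger gene amplified in some breast cancers, had a fold of 28.4 and lay in a simple repeat. A telomeric region on chromosome 5 reached 20.7 with 48 fragments. The region on chromosome 2 nearest to DCDC2C, 248 kb from its start and with a single-copy centre, had a fold of 19.3. A pericentromeric region on chromosome 17, whose central 31 bases occur 1347 times in hg38, had a fold of 16.2. The TEAD window 331 kb from MEIS1, a homeobox gene, had a fold of 16.6 and 58 fragments. The window 5.89 kb upstream of PTPRJ, a receptor phosphatase, had a fold of 15.8. Of the remaining 3 of the first 10, 1 lay 32.2 kb upstream of VCAM1, an adhesion molecule of activated endothelium and stroma, at 15.4. The others were nearest to DSEL (90.8 kb away) and ERCC2 (5.61 kb), both at 15.3. The backgrounds of the regions nearest to VCAM1, PTPRJ and DCDC2C were 0.886, 0.896 and 0.917 fragments. These were close to the lowest among the regions, 0.865. A low background raises the fold, and 143 regions (4.04%) lay at that lowest value. Of the first 10, dZF records overlapped the regions on chromosome 21, near ZNF703, in the telomeric repeat of chromosome 5 and nearest to DCDC2C. The pericentromeric region on chromosome 17 and the region upstream of VCAM1 were overlapped by dZF records too. Some of the dZF values are given below.

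The central 31 bases occurred more than 1 time in hg38 in 60 regions, 1.70% (1.32 to 2.18), 7 regions held telomeric repeats and 2 simple repeats. Among the 20 regions of highest fold, 6 had repeated centres. The share was 1.25% in gene-body regions without AP-1. Reads from repeated sequence cannot be placed with certainty.

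The largest pileups gave another order. The region of highest pileup, 225 fragments (limits 197 to 256), lay in repeated sequence near the centromere of chromosome 16, where the background was 25.3 fragments and the fold 8.60. Its neighbour in the same gap had 111 fragments. Both were overlapped by dZF records, with 217 and 124 fragments in the dZF list. The region on chromosome 21, also overlapped by a dZF record, came second. A region with a single-copy centre 5.46 kb from a start of VMP1, an autophagy gene, had 127 fragments and a fold of 7.20. On chromosome 5, a region 24.4 kb upstream of DNAH5, an axonemal dynein gene, had 124 fragments, and a region upstream of TRIO had 83. A region 6.71 kb from a start of SPARC, a matrix protein of activated stellate cells, had 82 fragments over a background of 10.6, for a fold of 7.14. The others of the first 10 lay near ZNF703 (97 fragments), ANKRD33B (90) and WDR70 (78).

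dZF records overlapped 22 of the 19108 full-length records, of which 16 were among the 3536 regions (0.452%). The dZF list held 54 records, of which 32 met the same rule. Of the 16 shared regions, 12 had a repeated or tandem-repeat centre. The 4 others included the region on chromosome 21, at a fold of 49.6 with full-length ZNF469 and 58.1 with dZF. They also included the regions nearest to DCDC2C (19.3 and 28.7) and to VCAM1 (15.4 and 20.03). Among the 10 shared regions of highest fold, dZF fold was above full-length fold in 9 and below it in the pericentromeric region on chromosome 17, at 13.1 against 16.2. How the lists were scaled is not given in the sources used here, so these folds are set side by side and not compared further.

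**Figure D3:**
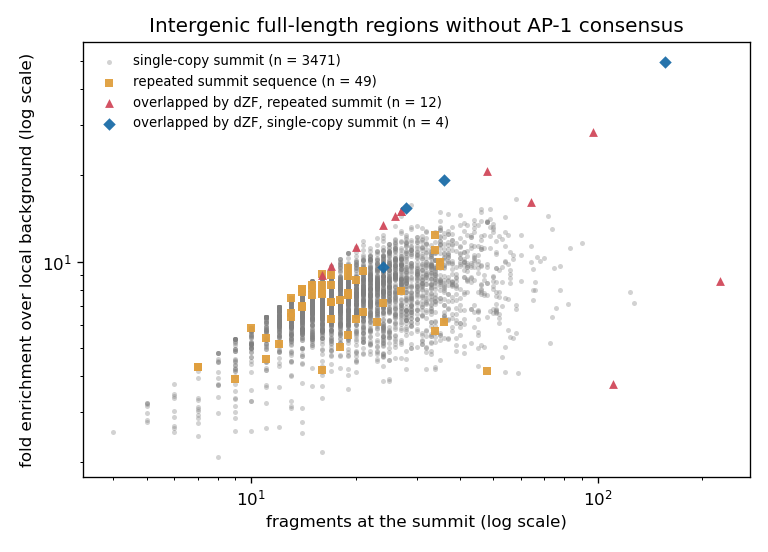
Fold enrichment against fragments at the summit, both on log scales, with 1 point for each of the 3536 regions. Colours and shapes mark regions with a repeated or tandem-repeat centre and regions overlapped by a dZF record. Most regions form a cloud around a fold of 7.34 and 20 fragments, and the points above a fold of 20 are all overlapped by dZF records.

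Although intergenic, the regions lay closer to genes than intergenic sequence does on the whole. The median distance to the nearest transcription start of a protein-coding gene was 50.9 kb (quartiles 17.9 and 156 kb), against 130 kb (33.8 and 448 kb) for a sparser grid of 55757 windows over the same kind of sequence. It was 52.7 kb for intergenic regions with AP-1. A distance above 100 kb was found for 1232 regions, 34.8% (33.3 to 36.4), for 34.7% (32.0 to 37.6) of those with AP-1 and for 55.3% of grid windows. Within 10 kb lay 526 regions (14.9%) against 8.89% of grid windows. The region was upstream of the nearest such start in 61.1% of cases and downstream in the rest, against 54.8% upstream for the grid. The nearest start of any kind was 17.4 kb away at the median. It belonged to a lncRNA gene in 33.3% of regions, to a protein-coding gene in 29.9% and to a processed pseudogene in 21.9%.

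**Figure D4:**
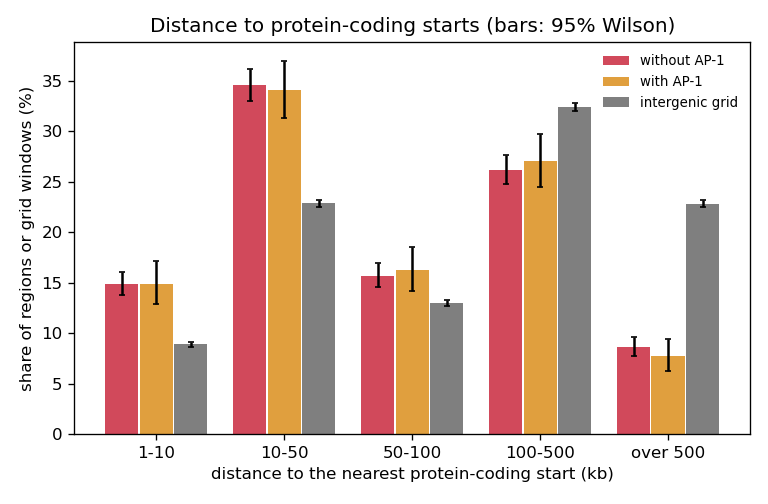
Share of regions without AP-1, of intergenic regions with AP-1 and of intergenic grid windows, in percent, by distance in kb to the nearest protein-coding transcription start. Bars start at 0 and error bars are 95% Wilson intervals. Both groups of regions have larger shares than the grid up to 100 kb and smaller shares beyond it, with 8.65% of regions and 22.8% of the grid beyond 500 kb.

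Gene deserts held few regions. In gaps of at least 500 kb without any annotated gene lay 105 regions, 2.97% (2.46 to 3.58), against 12% of grid windows. The grid includes sequence near centromeres, where reads map poorly. With gaps of 1 Mb or more left out of both, the shares were 2.42% (1.96 to 2.98) and 5.83%. Counting only protein-coding genes as limits, 33.6% of regions and 54.4% of grid windows lay in gaps of at least 500 kb. The desert regions were as strong as the rest, with a median fold of 7.43 against 7.34 and a median pileup of 19 against 20 fragments. Near-matches were in 34.3% of them (25.9 to 43.8) and in 24.3% of the others (22.9 to 25.8), and the TEAD core in 18.1% (11.9 to 26.5) and 14.9% (13.8 to 16.2). Their windows had a mean GC content of 38.9% against 44.1%, and the AP-1 consensus was in the record of 28.6% against 40.05%.

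The 5 widest gaps with a region comprised the centromeric gaps of chromosome 5 (4349 kb, left of EMB), chromosome 17 (4170 kb), chromosome 16 (2399 kb) and chromosome 20 (2248 kb), with 1, 1, 2 and 2 regions. The fifth was different. It was a gap of 1094 kb on chromosome 18 between lncRNA genes, with PIK3C3, a lipid kinase of autophagy, as the nearest protein-coding gene. It held 8 regions, of folds from 4.68 to 9.96, and 4 more with AP-1. No gap held more than 8. The same number lay in a gap of 372 kb on chromosome 9 nearest to ACTL7B, in one of 473 kb on chromosome 2 nearest to IRS1, the insulin receptor substrate, and in one of 882 kb on chromosome 13 between LINC00355 and LGMNP1. The fifth in this order, 128 kb on chromosome 2 beyond KRT18P19, held 7 regions, with COL5A2 or WDR75 as the nearest protein-coding gene. Of 2414 gaps with a region, 1719 held only 1.

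Some regions were near each other, and no baseline for this was computed. Some neighbours nearly abut, such as 113184130 to 113184577 and 113184665 to 113184767 on chromosome 6. Whether such records are pieces of a single stretch was not tested. Another of them lay within 10 kb for 888 regions, 25.1% (23.7 to 26.6), and any other full-length region for 1283, 36.3% (34.7 to 37.9). A full-length region with AP-1 at its summit lay within 10 kb for 9.30%, and a region within 1 kb of a start for 4.84%. Joined at 10 kb, the regions formed 404 clusters of 2 to 6. The largest pair of clusters held 6 regions each. One spanned 21.3 kb on chromosome 3, downstream of ABHD5, the coactivator of a triglyceride lipase. Its folds were 7.64, 9.14, 5.33, 7.87, 8.68 and 6.24, with pileups of 16, 28, 19, 23, 26 and 19 fragments, and 2 of the 6 had a near-match. The other spanned 33.6 kb on chromosome 18, 970 to 1004 kb upstream of CDH2, the N-cadherin gene of mesenchymal cells. Its folds were 7.54, 5.78, 5.96, 8.87, 6.20 and 7.33, and 5 of the 6 had a near-match. Clusters of 4 within the shortest spans had GOT2, UQCRHL and ADAMTS5, a matrix protease, as nearest protein-coding genes. They lay 898 to 901 kb, 7.26 to 12.3 kb and 603 to 613 kb from the starts of these genes.

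The nearest protein-coding start belonged to 2039 genes, 10.2% of 20007, and to 327 genes (1.63%) for 3 or more regions. Of the 2039 genes, 28.5% carried one of the list's records within 1 kb of their own start, against 22.3% of all protein-coding genes. A gene beside a long gap is nearest to more sequence, so densities are given beside counts. CDH2 led with 16 regions, 11 per Mb of the intergenic sequence nearest to it. RGMB, a BMP co-receptor, had 13 (18.3 per Mb), and 12 each were nearest to PIK3C3 (6.73 per Mb) and TLE1, a transcriptional corepressor (12.7). Counts of 10 were found for DNAH5 (12.9 per Mb), for MARCKS, an actin-linked membrane protein (15.8), for SOX9, a transcription factor of cartilage and fibrosis (13.2), and for TMEFF2 (6.13). CDH9 had 9 (4.19). ABHD5 had 8 (32.6), as did 12 other genes, and stands here by alphabetical order. All these densities were above the mean of 3.14 per Mb, which a choice of the highest counts favours.

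The 10 regions nearest to SOX9 all lay upstream, from 113 to 708 kb. Their folds ran from 4.54 to 9.57 and their pileups from 19 to 33 fragments. Near-matches were in 7 of them and the TEAD core in 1. They formed groups, with 4 regions between 680 and 708 kb and 3 between 487 and 489 kb. For CDH2, 8 of 16 regions had a near-match.

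Genes of signalling and matrix lists, chosen with earlier results of these data known, were nearest to a region more often than the 10.2% of all genes. No list was tested. The highest share was that of growth factors, receptors and cytokines, with 17 of 29 genes and 36 regions, 11.8 per Mb. PDGFC, a platelet-derived growth factor, had 7 regions from 5.78 to 396 kb away with folds of 2.47 to 12.2. AREG, an EGF receptor ligand, had 3 regions of folds from 6.68 to 8.85, and KITLG, the ligand of KIT, had 3 (5.80 to 6.88). Of the TGF-beta pathway, 10 of 21 genes were nearest to 21 regions. TGFB2, a ligand, had 4 regions 159 to 272 kb downstream, with pileups of 16, 19, 22 and 28 fragments. TGFBR2, the type II receptor, had 5 upstream regions from 9.06 to 287 kb, with pileups from 15 to 22 fragments.

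Mesenchymal transcription factors numbered 16 of 36 with 57 regions, 5.67 per Mb. Besides SOX9, KLF4 had 7 regions, all upstream, of which 5 had a near-match. KLF6 had 7 with no near-match. TBX3 had 6, NR2F1 had 5 upstream with 4 near-matches, and NR2F2 had 3. FOXD1, a factor of stromal progenitors, had 6 regions with folds from 2.18 to 13.9, including the RUNX window printed above. Activated stellate cell markers numbered 7 of 16 with 11 regions, 18.4 per Mb. LOXL4, a lysyl oxidase that crosslinks collagen, had 3 upstream regions with folds of 4.87, 7.66 and 12.1.

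Of 25 matrix genes, 10 were nearest to 21 regions, 4.28 per Mb. ADAMTS5 had 5 regions 603 to 839 kb upstream with 4 near-matches, and THBS2, a thrombospondin, had 4 with folds from 3.15 to 8.79. Collagen genes numbered 10 of 44 with 31 regions, 9.65 per Mb. COL5A2, a chain of fibrillar type V collagen, had 7 regions upstream over 10.9 to 104 kb, with folds of 6.01, 7.95, 5.22, 8.01, 7.99, 7.71 and 6.54. COL8A1, a short-chain collagen gene, had 7 upstream with folds from 5.74 to 12.2, and COL6A3, a chain of microfibrillar type VI collagen, had 5 downstream with folds from 5.25 to 7.07. COL1A1, like other collagen genes not named here, had 2 regions. Those of COL1A1 lay 17.2 and 18.1 kb upstream, with pileups between 43 and 65 fragments.

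Hippo pathway genes numbered 5 of 16 with 12 regions, 11.9 per Mb. CCN1, a matricellular target of YAP, had 4 regions 26.1 to 41.6 kb downstream, with pileups of 65, 56, 40 and 27 fragments, and the TEAD core was in 1 of the 4. AP-1 factors numbered 2 of 10, FOSL1 with 1 region and BATF3 with 2. None of the 4 RUNX genes and none of the 10 hepatocyte markers was nearest to a region. Their territories, 0.162 and 0.243 Mb, would hold only 0.508 and 0.762 regions at the mean density. Macrophage markers numbered 1 of 9 (CD14, 1 region) and endothelial markers 1 of 8 (KDR, 2 regions). At the mean density, the territories of these 2 lists would hold 1.81 and 2.90 regions.

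**Figure D5:**
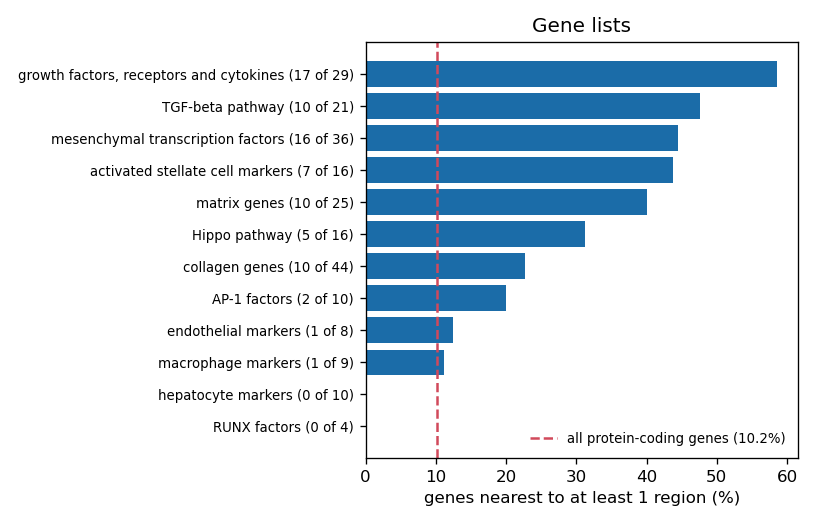
Share of genes in each list, in percent, whose transcription start is the nearest protein-coding start to at least 1 region, with counts beside the names. The dashed line is the share of all protein-coding genes, 10.2%. Growth factors, receptors and cytokines reach 17 of 29 genes, and hepatocyte markers and RUNX factors are at 0.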

How the data were processed

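The authors deposited 1 peak list per construct, standing for its 3 libraries and named as an IDR-filtered set; the calling steps are not given in the sources used here. The deposited lists hold, per record, an IDR score, a fold enrichment, a −log10 p-value and a summit offset; the deposited −log10 q-value was not used. The submitters' processing notes name bcl2fastq, Bowtie2 2.3.4.3, MACS2 2.2.5, deepTools 3.5.1 and R 4.2.1 without roles, and hg38, whose GENCODE version 44 annotation was used here. Whether a control library entered is not given in the sources used here, and total reads per library were not analysed here.

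Pileup and background at each summit were recovered from fold and −log10 p as whole fragments under (pileup + 1)/(background + 1) and a Poisson tail, with a largest miss of 6.9e-05. Distances run from the summit to transcript starts. Motifs were searched on both strands in 101 bp windows. Calculations used Python with numpy, pandas and scipy, after tests on simulated data. Members, motifs and gene lists were chosen with earlier results of these data known. Named were the 10 regions of highest fold, of highest pileup and shared with dZF, the 10 genes nearest to most regions (ties in alphabetical order), list genes nearest to 3 or more, the 5 widest and fullest gaps, the 5 largest clusters and the 10 words of highest ratio. Some list genes nearest to fewer than 3 regions, COL1A1 among them, were named too. No value belongs to a library, so no test was run. Some list genes and sequences that the rule names are not reported here.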

Additional observations from a re-analysis of the deposited data

How the results depend on the processing

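Of 63 alternative values, 37 stayed within the interval of the main value (for counts, within 1.5 times) and 26 moved. The number of regions moved to 1747 and 846 with the upper 50% and 25% of full-length records by fold, to 2132 with the whole record free of AP-1 and to 1882 with mismatched words barred too. Under the upper 50%, median fold was 8.61, median pileup 24, the share within 10 kb of another 7.50% and the RUNX share 13.0%. Under the upper 25% they were 9.84, 27 and 2.96%, with a median distance of 45.2 kb, 32.0% beyond 100 kb and no CTCF match (0%). Farther than 3 kb from starts, median distance was 56.6 kb, with 36.8% beyond 100 kb. With the record free of AP-1, median fold was 7.21, the share within 10 kb 18.7% and the TEAD share 16.4%. Windows of 100 bases on each side gave TEAD 26.8%, RUNX 22.4% and CTCF 0.255%. Gaps between protein-coding genes held 33.6% and gaps of 1 Mb 0.566%. Joining at 20 kb gave 35.7%. Without repeated or tandem-repeat centres, a choice made after the data were seen, 3475 regions were left and dZF overlap fell to 4 regions. By construction, smaller record sets lower counts and leave fewer neighbours within 10 kb, and a choice by fold raises median fold. Likewise, wider joining, gaps limited by fewer genes and longer windows raise their shares, and a longer gap limit lowers its share. The limit of 3 kb removes the regions closest to starts. The cause of the other shifts was not tested. No paired analysis was possible because 1 list stands for all 3 libraries, and for the same reason no library could be left out. Pileups of about 20 fragments limit the precision of a single region's fold.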

Other observations

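Matches to most of the remaining motifs of the list differed little or were few. The SMAD word CAGACA was in 8.68% of regions (7.8 to 9.66) and 7.11% of flanks (6.53 to 7.74), intervals that do not overlap. SP/KLF was in 2.35% of regions and 1.68% of flanks. The STAT site was in 0.622% and 0.331%, the ETS site in 0.481% and 0.23%, the SRF CArG box in 0.933% and 0.605% and the p53 motif in 2.91% and 2.17%. The FOX word TGTTTAC was in 1.16% and 1.27%, the TWIST E-box CATATG in 3.11% and 2.29%, the E-box CACGTG in 1.22% and 1.20% and the YY1 word in 0.424% and 0.461%. The CRE and the SMAD palindrome were each in 0.141% of regions, against 0.0432% and 0.072% of flanks. The CEBP-ATF composite was in 0.424% and 0.259%, the KLF word in 0.792% and 0.994%, the glucocorticoid receptor palindrome in 0.0848% and 0.101%, and the NF-I palindrome in 0.0566% of regions. NRF1 had no match in the regions or flanks.

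Words with 1 mismatch to the AP-1 consensus were in 50.7% (47.4 to 54) of the 884 regions with the highest folds and in 40.3% (37.1 to 43.5) of the 884 with the lowest, intervals that do not overlap. The TEAD core was in 15.6% and 14.1% of these, with overlapping intervals.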
